A study of Mus musculus with 5 samples.

Results

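The genes described here are the 3 Runx transcription factors Runx1, Runx2 and Runx3, their shared subunit Cbfb, and the 3 members of the ETO co-repressor family, Runx1t1, Cbfa2t2 and Cbfa2t3. They were chosen by name, 7 of the 21887 protein-coding genes of the mouse annotation. The data were H3K27ac peaks. Acetylation of lysine 27 of histone H3 marks active promoters and enhancers. It was mapped by ChIPmentation, in which chromatin is immunoprecipitated and the Tn5 transposase then adds the sequencing adapters. Per the labels, the cells came from mouse bone marrow and were sorted as positive for CD45.2, Sca1 and Kit and negative for lineage markers, which the labels call HSC/MPP (haematopoietic stem cells and multipotent progenitors). Their genotype is given as Mll3/4 deleted, in the 4 H3K27ac libraries and in the 1 input library. The labels used here do not say what drove the deletion, or the age of the mice. The deposited data were 1 peak list for the 4 libraries together, so no value of a single library, no replicate error and no comparison with another genotype could be had.

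Runx factors bind DNA through the Runt domain and become stable and bind tightly when paired with Cbfb, which does not itself touch DNA. Runx1 is required for blood stem cells to form in the embryo, Runx2 for bone, and Runx3 acts in T cells and sensory neurons. Each Runx gene can be transcribed from a distal promoter, P1, or from a proximal promoter, P2, and the products differ at the amino end. The ETO family proteins do not bind DNA directly but bring co-repressors and histone deacetylases to other factors. Runx1t1 is the gene joined to RUNX1 in the 8;21 translocation of human leukaemia, and Cbfa2t3 (ETO2) acts with E proteins and Tal1 in blood progenitors.

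Of the 7 genes, 4 had a peak within 1 kb of either end, namely Runx1, Cbfb, Cbfa2t2 and Cbfa2t3, against 36.2% of all protein-coding genes. Runx1 stood out from the other members by strength and number. Its peak at the start had a signal value of 10.1, and 20 of the 27 peaks in the bodies of the 7 genes lay in Runx1. The number rested on weak peaks: with −log10 q of 5 as the minimum, Runx1 held 2 of 4 body peaks, and Cbfb and Cbfa2t2 held 1 each. The signal value is the authors' ratio of H3K27ac to background at the peak. Runx2, Runx3 and Runx1t1 had no peak at either end. Runx3 had a peak at an internal start instead. Runx1t1 had no peak in its body or within 100 kb. Without a called peak, the mark may still be present below what these libraries could detect.

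The RefSeq promoter table gave 9 starts for 6 of the members, and 5 of the 9 had a peak within 1 kb, against 37.4% of the 21263 starts of protein-coding genes in the table. Runx1, Runx3 and Cbfa2t3 each had 2 starts. The starts of Runx1 lay 128.7 kb apart, those of Runx3 31.9 kb apart and those of Cbfa2t3 20.9 kb apart. The upstream starts of Runx1 and Runx3 are taken here as P1 and the downstream starts as P2. The single start listed for Runx2 lies at the distal end of the gene, the side of P1. The sequences of these 5 starts are shown because the Runx genes differed in which of them carried a peak. Each runs from 250 bases before the start to 50 after it, 5′ to 3′ on the strand of the gene, from RefSeq on GRCm38.p6. Capitals mark the letters of the Runx motif, TGTGGT or TGCGGT, on either strand (ACCACA or ACCGCA on the other). The upstream start of Runx1 is at chr16:92826025-92826324 (minus strand), the start of Runx2 at chr17:44814578-44814877 (minus strand), the upstream start of Runx3 at chr4:135120395-135120694 (plus strand), and the downstream starts are at chr16:92697280-92697579 for Runx1 and chr4:135152295-135152594 for Runx3.
Runx1 upstream start: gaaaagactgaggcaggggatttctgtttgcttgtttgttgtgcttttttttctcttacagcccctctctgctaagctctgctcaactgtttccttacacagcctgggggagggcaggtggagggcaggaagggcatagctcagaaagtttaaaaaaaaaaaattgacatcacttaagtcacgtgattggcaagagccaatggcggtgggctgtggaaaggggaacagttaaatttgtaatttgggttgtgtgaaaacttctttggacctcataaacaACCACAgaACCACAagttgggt
Runx2 start: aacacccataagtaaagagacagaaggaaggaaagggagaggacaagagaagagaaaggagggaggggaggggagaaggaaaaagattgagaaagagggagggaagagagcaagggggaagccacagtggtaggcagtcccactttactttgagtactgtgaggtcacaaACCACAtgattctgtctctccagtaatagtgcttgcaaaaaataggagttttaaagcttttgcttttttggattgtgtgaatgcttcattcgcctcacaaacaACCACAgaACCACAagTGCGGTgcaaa
Runx3 upstream start: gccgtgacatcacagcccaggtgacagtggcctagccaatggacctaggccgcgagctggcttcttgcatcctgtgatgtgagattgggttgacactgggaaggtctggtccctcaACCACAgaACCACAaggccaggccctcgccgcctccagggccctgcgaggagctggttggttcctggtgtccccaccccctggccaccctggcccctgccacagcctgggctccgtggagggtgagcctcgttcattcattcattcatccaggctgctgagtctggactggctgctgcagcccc
Runx1 downstream start: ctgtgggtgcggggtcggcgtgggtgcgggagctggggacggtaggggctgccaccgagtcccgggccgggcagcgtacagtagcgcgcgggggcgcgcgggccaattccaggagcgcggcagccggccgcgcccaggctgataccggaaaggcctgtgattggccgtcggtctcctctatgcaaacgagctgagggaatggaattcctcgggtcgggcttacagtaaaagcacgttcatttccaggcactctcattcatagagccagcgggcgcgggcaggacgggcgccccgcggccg
Runx3 downstream start: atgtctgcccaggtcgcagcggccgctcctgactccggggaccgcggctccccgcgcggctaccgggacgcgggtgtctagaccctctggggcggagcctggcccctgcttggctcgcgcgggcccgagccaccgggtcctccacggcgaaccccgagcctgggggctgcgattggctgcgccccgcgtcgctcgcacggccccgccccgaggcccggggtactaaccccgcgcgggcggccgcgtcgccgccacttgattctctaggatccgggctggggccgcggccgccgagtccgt

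The upstream starts of the 3 Runx genes shared a stretch of 18 bases, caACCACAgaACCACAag, which holds the Runx motif in tandem. Its first base was at position 27 from the start of Runx1 and 22 from that of Runx2, counting the start as 1, and at -136 for Runx3. None of the other starts in the table held the 18 bases on either strand. The letters ACCACANNACCACA alone occurred at 4 starts, 0.0188% of the table, the fourth being that of Olfr24, an odorant receptor gene. The start of Runx2 had 4 matches to TGTGGT or TGCGGT, a number reached by 0.0423% of starts. The upstream starts of Runx1 and Runx3 had 2 each, reached by 2.64% of starts, and at least 1 was found at 21.6%. The downstream starts of Runx1 and Runx3 held neither form. The shared stretch of Runx1 lay inside a peak, while those of Runx2 and Runx3 lay 36.6 kb and 32.6 kb from the nearest peak. The letters therefore did not go with a peak in all 3 genes. The stretch was sought after the sequences had been seen.

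At Runx1, the upstream start carried a peak and the downstream start did not. The peak at chr16:92824133-92827648 was 3516 bp wide, wider than 96.4% of the list counting ties by their midpoint. Its signal value was 10.1 and its −log10 q was 35.4. By signal value it was number 485 of 22948 peaks. It reached from 1574 bp before the start to 1941 bp after it, with the summit 422 bp into the gene. The median of the strongest signal value at an end was 4.71 over all genes with such a peak. The peak nearest to the downstream start, chr16:92715053-92715657, began 17.7 kb upstream of it and was weak, with a signal value of 2.51 and a q-value of 0.0604. The downstream start lay within the longest stretch of the gene without a peak, chr16:92649355-92715052, which is 65.7 kb long.

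**Figure D1:**
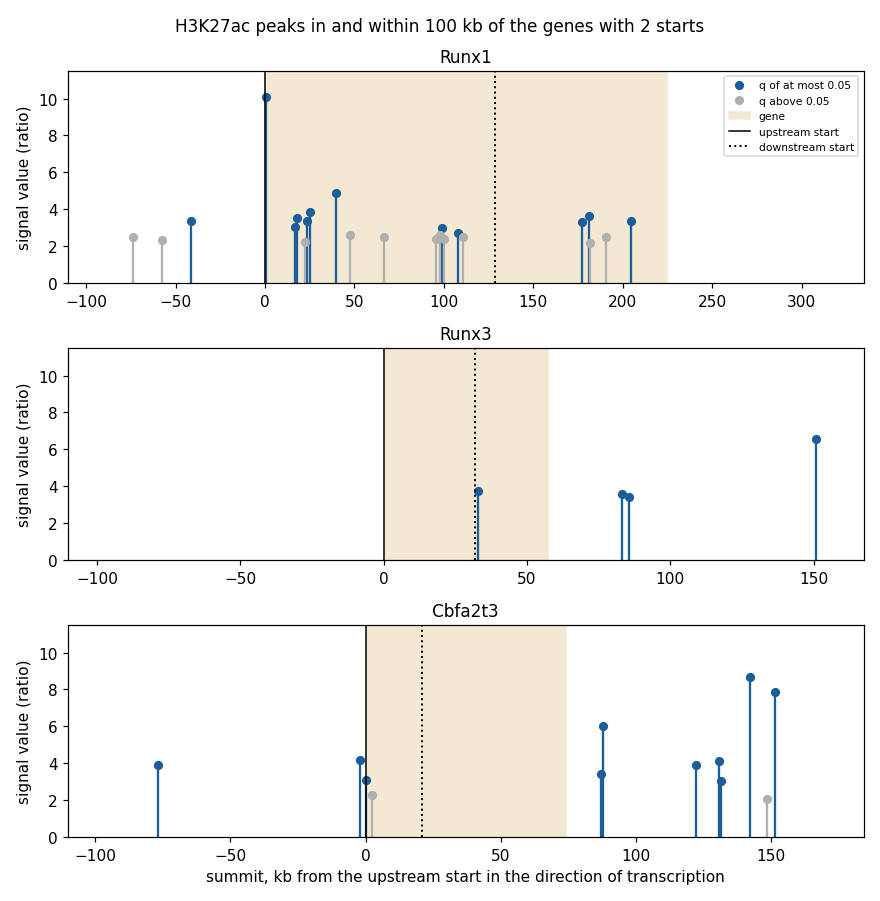
Each line is an H3K27ac peak, placed at its summit in kb from the upstream start and drawn as high as its signal value (ratio), for Runx1, Runx3 and Cbfa2t3. Blue peaks have a q-value of at most 0.05 and grey ones a higher q-value, and shading marks the gene. The peak at the upstream start of Runx1 is the highest in the plot at 10.1, and the downstream starts of Runx1 and Cbfa2t3 have no peak.

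At Runx3 the downstream start had the only peak, and this call was less firm. No peak lay within 1 kb of the upstream start, and the nearest one began 32.4 kb downstream. That peak, chr4:135153087-135153999, lay just past the downstream start, from 542 to 1454 bp into the transcribed side, with a signal value of 3.73 (−log10 q 4.38.) It was the only peak in the 57.3 kb of Runx3. With −log10 q of 5 or signal values of 4 as the minimum, this peak was lost and neither start of Runx3 had one, while the upstream start of Runx1 kept its peak. At Cbfa2t3 the upstream start carried peaks and the downstream start none, as at Runx1. A peak of 3801 bp at chr8:122699535-122703335 (signal value 4.19, −log10 q 6.27) ended 426 bp before the upstream start, over the long non-coding RNA gene Gm10612. A second at chr8:122698111-122699076 (3.09, −log10 q 2.68) began 33 bp after it. The downstream start was 18.4 kb from the nearest peak. Among 814 protein-coding genes with exactly 2 listed starts more than 2 kb apart, 24.4% had a peak at the upstream start only, 12.4% at the downstream start only, 9.95% at each and 53.2% at neither. With 2.5 kb in place of 1 kb, the same 2 of the 4 starts of Runx1 and Runx3 had a peak.

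CpG dinucleotides differed widely between these starts. The upstream starts held 2 CpG in 300 bases at Runx1, 8 at Runx3 and 10 at Cbfa2t3, and the downstream starts held 35, 45 and 53. The median over all starts was 13. Starts with a peak became more frequent with CpG number, from 6.40% of starts with 0 to 4 CpG to 63.7% of those with 30 or more. Of the 3841 starts with at most 2 CpG, 153 (3.98%) had a peak, and the upstream start of Runx1 ranked 12 among these by signal value. The start of Runx2 also had 2 CpG and had no peak. Of the 1940 starts with at least the 35 CpG of the downstream start of Runx1, 64.1% had a peak. This one was among those without. The downstream start of Cbfa2t3, with 53 CpG, likewise had none.

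**Figure D2:**
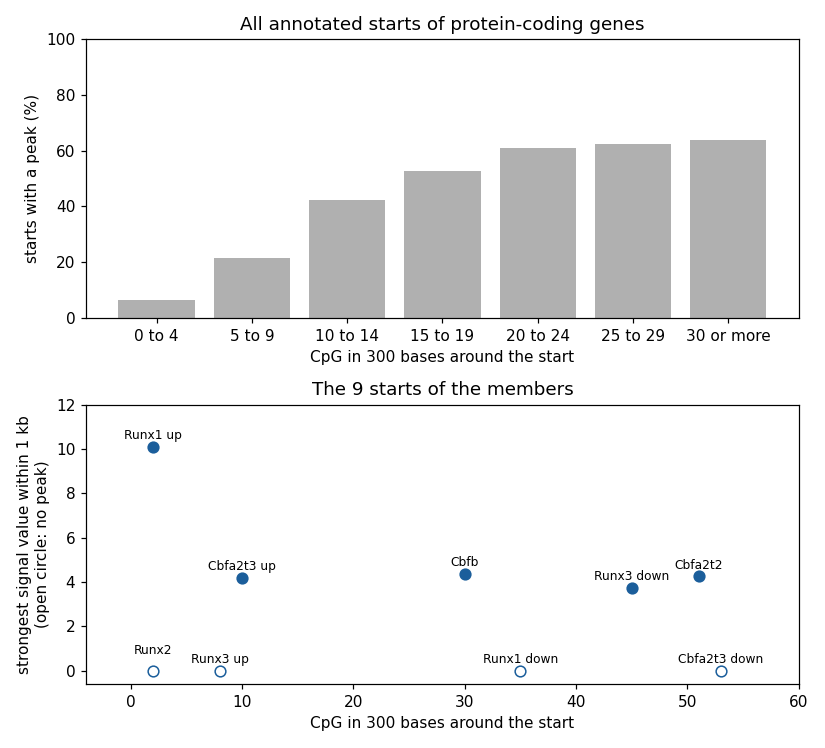
The upper bars give the percent of all annotated starts with a peak within 1 kb, by the number of CpG in 300 bases. The lower points give CpG number and the strongest signal value for the 9 starts of the members, with open circles at 0 for starts without a peak and up and down for the upstream and downstream start. The upstream start of Runx1 has 2 CpG and a signal value of 10.1, while its downstream start has 35 CpG and no peak.

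The body of Runx1 (chr16:92601466-92826074, 224.6 kb, minus strand) held 20 peaks, and 3 more lay within 100 kb, all upstream of the gene. A peak in the body was found for 6 of the 7 members, against 41.3% of protein-coding genes. The members are longer than most genes, whose median length was 17.2 kb, and of the 5179 genes at least as long as Cbfb, the shortest member, 58.0% had a peak in the body. With −log10 q of 5 as the minimum, Runx1, Cbfb and Cbfa2t2 still had one, 3 of the 7 members, against 26.6% of all genes. That share is over genes of all lengths, and none was computed for long genes at this limit. Only 0.224% of protein-coding genes had 20 or more peaks in the body, and Runx1 was number 42, tied among 8 genes. The highest numbers were 70 in Arid1b, 67 in Foxp1, 56 in Zmiz1, 54 in Ebf1 and 52 in Bach2, which encode a chromatin remodeller subunit, a forkhead factor, a transcriptional co-regulator and factors of the B lineage. Gene length matters for this count. Of the 843 genes at least as long as Runx1, 3.91% had 20 or more peaks, with a median of 1. Per kb of gene, 12.8% of all genes had at least as many peaks as Runx1, and its peaks covered 7.88% of the gene. Most of the peaks were weak. The signal values ran from 2.15 to 10.1 with a median of 2.84, below the 3.27 of the whole list. A q-value above 0.05 was attached to 9 of the 20, against 21.2% of the list, and 11 were left without these.

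The stretch between the starts of Runx1 held 14 of the 20 peaks, or 10.9 per 100 kb, and the 95.9 kb past the downstream start held 5, or 5.22 per 100 kb. These counts include weak peaks, as 7 of the 14 and 2 of the 5 had a q-value above 0.05. The exons were not in the annotation used, so peaks are placed by distance from the starts and not by intron number. With peaks joined across gaps of up to 12 kb, 5 of the 14 formed a group at chr16:92800814-92809618, from 16.5 to 25.3 kb into the gene. The strongest of this group had its summit 25.1 kb into the gene and a signal value of 3.85. Its neighbours had their summits at 23.7 kb (3.35) and 22.4 kb (2.22, q-value 0.289). This is where the intronic blood enhancer of Runx1 known by its distance of 23 kb from P1 is placed. The strand in the promoter table put P1 at the high end of the gene, the end from which these distances run.

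The strongest peak of the body after the one at P1 was chr16:92785766-92787499, with its summit 39.4 kb into the gene, a signal value of 4.90 (−log10 q 9.06.) It formed a pair with a weaker peak at 47.4 kb (2.60), and a peak at 66.4 kb (2.51) stood alone. A second group of 6 peaks at chr16:92715053-92731144 lay 94.9 to 111.0 kb into the gene, on the near side of the downstream start. Its signal values ran from 2.38 to 3.00, and 4 of the 6 had q-values above 0.05. Past the downstream start, 4 peaks at chr16:92635350-92649354 lay 176.7 to 190.7 kb into the gene, the strongest at 3.64, and 1 peak had its summit at 204.6 kb with 3.33. Upstream of the gene, summits lay 41.6, 57.6 and 73.7 kb before P1 with signal values of 3.33, 2.34 and 2.48 and q-values of 0.000606, 0.100 and 0.159, so 1 of the 3 had a q-value of at most 0.05. Each of the 23 peaks had Runx1 as its nearest protein-coding gene. The only other protein-coding gene in the range, Clic6, had no peak at an end.

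**Figure D3:**
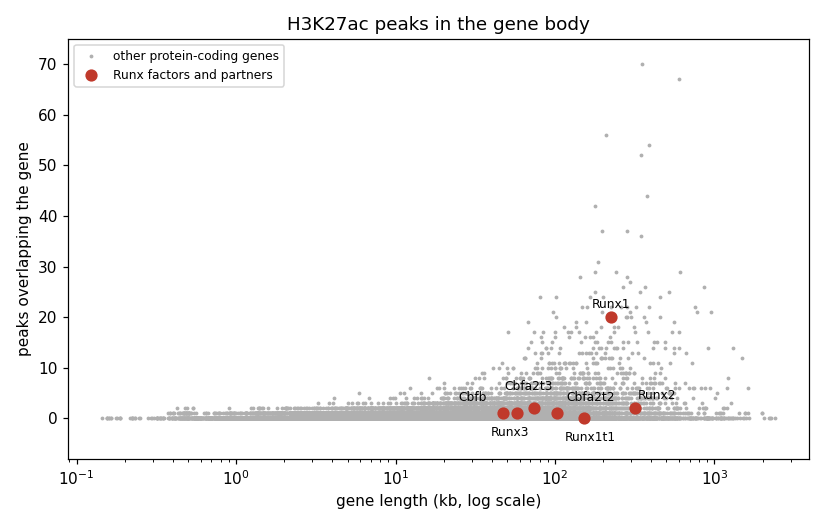
Each grey point is a protein-coding gene, with its length in kb on a log axis and the number of H3K27ac peaks that overlap it. Red points are the 7 members. Runx1, with 20 peaks in 224.6 kb, lies above the other members, which have 0 to 2 peaks at lengths from 47.3 to 318.8 kb.

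Runx2, the longest member at 318.8 kb (chr17:44495987-44814797, minus strand), had 2 peaks in its body and 1 outside. Of the genes at least as long, 72.6% had 2 or fewer peaks. The stronger body peak, chr17:44777217-44778018 (signal value 3.64, −log10 q 4.38), lay 37.0 kb into Runx2 and from 51 to 852 bp past the start of Supt3, a gene for a transcription co-activator subunit that overlaps Runx2 on the opposite strand. The other, chr17:44613851-44614532, had its summit 200.2 kb into the gene with a signal value of 2.78 and a q-value of 0.0211. The third lay beyond the far end of the gene, with a signal value of 3.39. No peak lay near the start of Runx2.

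Outside Runx3, 3 peaks lay within 100 kb, all past the far end of the gene. The strongest, chr4:135269023-135272741 (signal value 6.58), was at the start of Clic4, a chloride channel protein gene. The others, with signal values of 3.55 and 3.43, lay 83.3 and 85.5 kb from the upstream start of Runx3, between the genes and nearer to Clic4. No peak lay upstream of Runx3 within 100 kb.

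Cbfb, the subunit that all Runx proteins share, had a single peak in its 47.3 kb body, at its start. The peak at chr8:105170769-105172211 was 1443 bp wide, with a signal value of 4.37 (−log10 q 6.93), and began 95 bp after the start. The start held 30 CpG and no match to the Runx motif. The 2 other peaks in range were weaker, at 2.79 and 3.00, and lay at the neighbouring ends of Tradd and Fbxl8 and of Exoc3l and E2f4. In Cbfa2t2, a single peak at chr2:154436630-154437587 (signal value 4.25, −log10 q 6.27) began 146 bp after the start, which held 51 CpG. The 5 other peaks in its range had their summits 64.0 kb or more from that start. Of these, 3 were at ends of Cdk5rap1, Pxmp4 and Zfp341, the strongest with a signal value of 7.59 at Pxmp4. The peaks at Cbfb, at Cbfa2t2 and at the downstream start of Runx3 thus lay wholly on the transcribed side. Among the 6271 starts with exactly 1 peak within 1 kb, 34.3% had it wholly on that side, 55.4% had it over the start as at Runx1, and 10.3% had it wholly upstream.

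**Figure D4:**
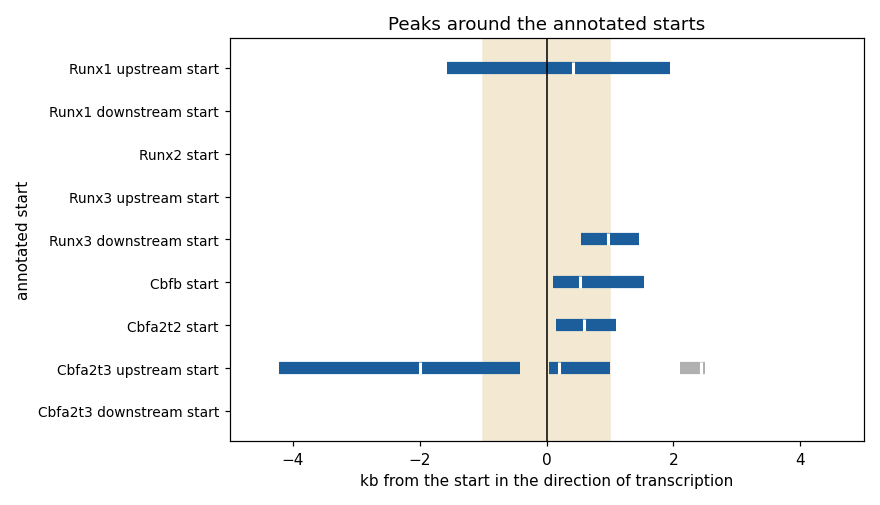
Bars are the peaks within 5 kb of each of the 9 annotated starts, placed in kb from the start in the direction of transcription, with a white tick at the summit. Blue bars have a q-value of at most 0.05 and the grey one a higher q-value, and shading marks the 1 kb on either side. The peak at the upstream start of Runx1 crosses the start, those at Cbfb, Cbfa2t2 and the downstream start of Runx3 lie past it, and 4 starts have no bar.

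Cbfa2t3 had 2 peaks in its body of 74.2 kb, the one at its start and a weak one with its summit 2.43 kb into the gene (signal value 2.26, q-value 0.395), and none past its downstream start. Its range held 12 peaks, a number reached by 4.90% of protein-coding genes. This was a gene-dense neighbourhood, where 6 of 7 other protein-coding genes (Piezo1, Cdt1, Aprt, Galns, Trappc2l and Acsf3) had a peak at an end, and Cbfa2t3 was the nearest protein-coding gene for 3 of the 12. The strongest, chr8:122556413-122557746 (signal value 8.69), overlapped the long non-coding RNA gene Gm34847 beyond the far end of Cbfa2t3. Runx1t1 (chr4:13742628-13895056, 152.4 kb) had no peak within 100 kb, as was the case for 5036 protein-coding genes. Over all 7 members, a peak in the body or within 100 kb was found for 6, against 77% of genes. Of the 24 peaks outside the bodies, 13 were at an end of another protein-coding gene.

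Other genes of the pathway were counted for a peak at an end. Of 18 co-regulators that bind Runx or ETO proteins or modify chromatin with them, 17 had one, against 36.2% of all genes. The share depends on the genes compared, since 63.7% of all starts with 30 or more CpG had a peak. No share over genes like these co-regulators was computed, so whether the count is particular to the Runx pathway was not tested. The strongest were at Tle4, a Groucho co-repressor (signal value 8.33), Ep300, an acetyltransferase that writes H3K27ac (7.62), and Prmt1, an arginine methyltransferase (6.52). Tle2 had none. Many of these peaks were modest, and 9 of the 17 genes kept one with −log10 q of at least 5, a level reached by 24% of all genes. Of 16 partner transcription factors, 6 (37.5%) had a peak at an end, close to the 36.2% of all genes. The strongest were at the E protein gene Tcf12 (6.86), Myb (5.39) and the E protein gene Tcf3 (4.68). None was found at Ets1, Fli1, Erg, Gata1, Gata2, Tal1, Lmo2, Ldb1, Cebpa and Gfi1b. Of these, the ETS factors Erg, Fli1 and Ets1 had 20, 17 and 16 peaks in the body, numbers near that of Runx1, without a peak at an outer end. Their internal starts and the strength of these body peaks were not compared with those of Runx1. Of 15 genes described as direct Runx targets, 3 (20%) had a peak at an end, against the same 36.2%: Ebf1 (12.4), Gfi1 (4.25) and Spi1 (4.11). There was none at Csf1r, Csf2, Il3, Pf4, Mpo, Cebpa, Itga2b, Gfi1b, Zbtb7b, Cd4, Cd8a and Blk. These lists were chosen with earlier results of these data known, and 4 genes (Spi1, Gfi1, Gfi1b and Cebpa) were both partners and targets.

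The labelled cell type was compared with marker genes in the same way, beside the same 36.2% of all genes. Of 6 genes of the sorted cells, 4 had a peak at an end: Ptprc, which encodes CD45 (10.8), Flt3 (6.58), Kit (5.66) and Slamf1 (3.21). None lay at an end of Cd34 or of Ly6a, which encodes Sca1. Within 100 kb, Ly6a had 18 peaks and Cd34 had 3, against a median of 3 over all genes. Such counts can include peaks at neighbouring genes and were not confined to the sorted-cell list. The T-cell marker Lck, without a peak at an end, had 12. The list medians were 9 for the sorted cells, 21.5 for B cells and 4 for T cells. They were 3 for granulocytes and macrophages and 2 for the erythroid and megakaryocyte list. Of the B-cell markers, 3 of 4 had a peak (Ebf1 12.4, Pax5 8.45 and Cd79a 4.40, with none at Ms4a1), of the T-cell markers 1 of 4 (Cd3d 4.90), and of the granulocyte and macrophage and of the erythroid and megakaryocyte markers 0 of 5 each. Lists of 4 to 6 genes are short, and 1 of 4 is near the share over all genes. Ebf1 and Pax5 were also numbers 4 and 11 of all protein-coding genes by peaks in the body, with 54 and 31. Kit, of the sorted-cell list, had 16. Of the partner factors above, Gata2, Tal1 and Lmo2 had 0, 2 and 1 peaks within 100 kb, against a list median of 7.5. In a bulk peak list, fewer cells of a type and less signal per cell cannot be told apart. Whether cells with B-cell markers contributed to the peaks at Runx1 was not tested.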

How the data were processed

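H3K27ac ChIPmentation was deposited as 1 narrowPeak list for 4 H3K27ac libraries and 1 input library of the same genotype. The submitters' processing notes name BWA, MACS2 and mm10, without versions or roles. The name of the deposited list calls it the optimal set of overlapping H3K27ac peaks over input. The thresholds, and between which libraries the overlap was taken, are not given in the sources used here. The list has no header. By the layout of this format, its deposited columns hold a score, the signal value as a ratio (fold over background), −log10 p and −log10 q. These are the authors' own values for each peak and were used to describe, rank and filter peaks. The q-values in the text were computed from the −log10 q.

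Total read counts are unknown, so no interval on a peak could be given. Genes and starts came from RefSeq tables of GRCm38.p6, the build that mm10 names. Coordinates are 1-based. A peak was at an end or start when it overlapped 1 kb on either side, in the body when it overlapped the gene, and in range when it overlapped the gene or 100 kb beyond. Motifs were counted on both strands in 300 bases. Python 3.11.15, numpy 2.4.6, pandas 2.3.3 and matplotlib 3.10.9 were used. The counting was checked on simulated data. No test between samples could be made. The members and lists were chosen with earlier results of these data known. Of the lists, 2 genes are not reported here. Named genes were all members, the 3 strongest genes and those without a peak of each pathway list, marker genes with a peak, the 5 genes with most body peaks, and neighbours with a peak at an end. Cd34, Ly6a, Ms4a1, Lck, Clic6 and Olfr24 were named after their values were seen. Alternatives were stricter lists, other windows and ranges, merging, and nearest-gene counting.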

Additional observations from a re-analysis of the deposited data

How the results depend on the processing

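Of 105 recomputed counts, ranks and signal values, 55 stayed within a factor of 1.5 and 50 moved by more. The values of Runx1t1, 0 in every setting, are not among them. The number of members with a peak at an end stayed at 4 in all 5 alternatives. The 27 peaks in the bodies fell to 4 when −log10 q had to reach 5, to 4 when the signal value had to reach 4, and to 17 when q could not exceed 0.05. Members with a peak in the body numbered 3 in place of 6 under each of the first 2 of these limits, and starts of Runx1 and Runx3 with a peak 1 in place of 2 (alternatives chosen after seeing the data). The body peaks of Runx1 numbered 2, 2 and 11 under the 3 limits, in place of 20. The 51 peaks in range fell to 16 for −log10 q from 5 up, to 14 for signal values from 4 up, and to 32 for peaks whose nearest gene was the member. Co-regulators with a peak at an end were 9 with −log10 q of at least 5. By peaks per kb Runx1 was number 2811 and by the share covered number 3090 of all genes, in place of 42. Depth was not given, and no value here shows how many weak peaks in Runx1 would remain in deeper libraries. Single libraries could not be left out, since 1 list pools them. No paired analysis was possible because no column belongs to 1 replicate.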
